A study of Homo sapiens with 20 samples.

Results

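The ETS family is described here by 10 of its genes, ETV1, ETV4, ETV5, ETS1, ETS2, ELK3, ETV6, ELF1, ELF3 and EHF, chosen by gene name from the 60271 genes of the deposited tables. All 10 passed the filter on low counts. The cells were MDA-MB-468, an established triple negative breast cancer line of epithelial type with an amplified EGF receptor gene, and every library came from this single line. The 5 groups were an untreated control and cells given 50 ng/mL epidermal growth factor (EGF) for 12, 24, 48 or 72 h, with 4 biological replicates each and 20 libraries in all. The labels state that cells grew for 24 h and went without serum for 24 h before EGF, and that the groups shared their seeding and harvest and differed in when EGF was added. They do not give the time without serum for each group separately. EGF was used to induce epithelial-mesenchymal transition (EMT), and RNA was sequenced after poly(A)-based library preparation, so that each value is a level of mRNA in a whole culture.

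ETS proteins are transcription factors that share a DNA-binding domain and recognize a GGAA core. Several of them lie at the end of the RAS and ERK pathway that the EGF receptor switches on. ETS1 and ETS2 are phosphorylated by ERK, ELK3 belongs to the ternary complex factors that bind beside serum response factor (SRF), and the PEA3 genes ETV1, ETV4 and ETV5 are repressed by Capicua (CIC) until ERK relieves that repression. ELF3 and EHF are epithelium-specific members, ETV6 is a repressor, and ELF1 is a broadly expressed activator.

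Levels are given as counts scaled to a common library size (CPM) after TMM scaling, as mean ± SD over 4 libraries. Changes are log2 fold changes with their SE, and each adjusted p comes from the quasi-likelihood test of edgeR, corrected after Benjamini and Hochberg for the 16522 genes that passed the filter, with a threshold of 0.05. The 4 EGF times were compared with the same 4 control libraries, so those comparisons are not independent of each other. In bulk RNA, fewer cells that express a gene and less of its RNA per cell cannot be told apart.

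The libraries held 15611961 to 25856953 counts, and the lowest count of any member in any library was 56, for ETV1 in a control library. Mitochondrial genes took 9.032 to 12.563% of counts in the control, 7.694 to 11.27% at 12 h, 11.126 to 13.758% at 24 h, 9.834 to 16.851% at 48 h and 12.265 to 16.422% at 72 h, and their part in the results was not tested. The highest share was that of EGF 48 h replicate 2, which also differed from replicates 3 and 4 of its group by 57.5 and 38.3 times counting noise per gene. Control replicate 2 differed from control replicates 3 and 1 by 50.8 and 29.7 times, and the control enters every comparison against it. All 6 epithelial markers (EPCAM, CDH1, KRT8, KRT18, KRT19 and EGFR) were detected, with a summed level of 4829 to 5278 CPM in the control and 18448 to 19204 CPM at 12 h, most of it EGFR. Of 9 markers of leukocytes, endothelium and fibroblasts only CD68, PECAM1 and COL1A1 passed the filter. Summed over the 9, the control libraries held 8.22 to 11.0 CPM, those at 12 h 26.2 to 27.2 CPM and those at 72 h 40.0 to 46.3 CPM. The rise was mainly CD68, from 1.15 to 26.7 CPM, while PTPRC, CD3E, CDH5, VWF, COL1A2 and PDGFRB had a mean of at most 0.265 CPM in every group, and CD3E and COL1A2 were at 0 in every library at 12 h.

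The promoter of ETV1 is shown because it held the only match among the members to the motifs searched. Promoter sequences from RefSeq (GRCh38.p14, from 250 bases before to 50 after a transcript start) were at hand for 7 of the 10 members, namely ETV1, ETV6, ETS2, ELF1, ELF3, EHF and ELK3. ETV4, ETV5 and ETS1 had no entry. The window below runs 5′ to 3′ on the minus strand, and the capitals mark TGAATGGA, a form of the octamer that CIC recognizes.
ETV1 promoter, chr7:13991376-13991675: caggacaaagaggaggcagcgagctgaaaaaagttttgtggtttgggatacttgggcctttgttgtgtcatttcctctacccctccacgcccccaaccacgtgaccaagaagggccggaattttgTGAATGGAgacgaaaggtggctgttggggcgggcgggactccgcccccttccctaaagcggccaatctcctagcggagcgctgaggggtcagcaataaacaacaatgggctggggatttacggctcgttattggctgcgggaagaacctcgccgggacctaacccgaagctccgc
The match spans chr7:13991543-13991550 and ends 118 bases before the start. Both strands were searched for the octamers TGAATGAA and TGAATGGA, for the ETS motif CCGGAAG, the AP-1 motif TGANTCA and the CArG box of SRF. Of the 35116 promoters in the table, 1.03% held TGAATGGA, 1.65% TGAATGAA, 10.3% CCGGAAG, 7.71% TGANTCA and 1.29% a CArG box. These letters were not found in the windows of the other 6 members, nor in the other windows of ETV1. The search describes the reference sequence only.

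Against the control, most of the 10 members split into genes that rose at every or nearly every time and genes that fell. The first were ELK3, ETS1, ETS2, the PEA3 genes and, less steeply, ELF3, and the second were ETV6 and EHF. For ELF3, EHF and ELF1 this depended on the scaling. ELF3 was not called at 24 h, and ELF3 and ELF1 were higher at 12 h with TMM scaling but not with total counts. With factors per gene from the deposited normalized values, EHF was called at no time and turned to positive values at 24 and 72 h. ELF1 was lower at 72 h. At 12 h, 7 members were called higher and 2 lower, beside 32.9% of all tested genes higher, 36.5% lower and 69.4% called in all. At 24 h, 6 were higher and 2 lower (all tested genes, 29.2% higher, 29.6% lower and 58.8% called), and at 48 h, 7 were higher and 2 lower (24.0%, 21.8% and 45.8%). At 72 h, all 10 were called, 7 higher and 3 lower (30.6%, 31.0% and 61.6%). A large part of the transcriptome was called at each time, so the number of members called says little by itself, and the sizes and times of the changes follow. The EGF and control libraries did not overlap for 9 members at 12 h (60.8% of all tested genes), 9 at 24 h (48.2%), 9 at 48 h (34.9%) and all 10 at 72 h (52.0%). The median log2 fold change over the 10 members was 0.56, 0.89, 0.79 and 0.81 at 12, 24, 48 and 72 h, while over all tested genes it was -0.05, -0.01, 0.01 and -0.01. Over the 12 other ETS genes that passed the filter it was 0.13, -0.18, -0.11 and -0.13. The 10 members were chosen with earlier results of these data known, so their median does not describe the whole ETS family.

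**Figure D1:**
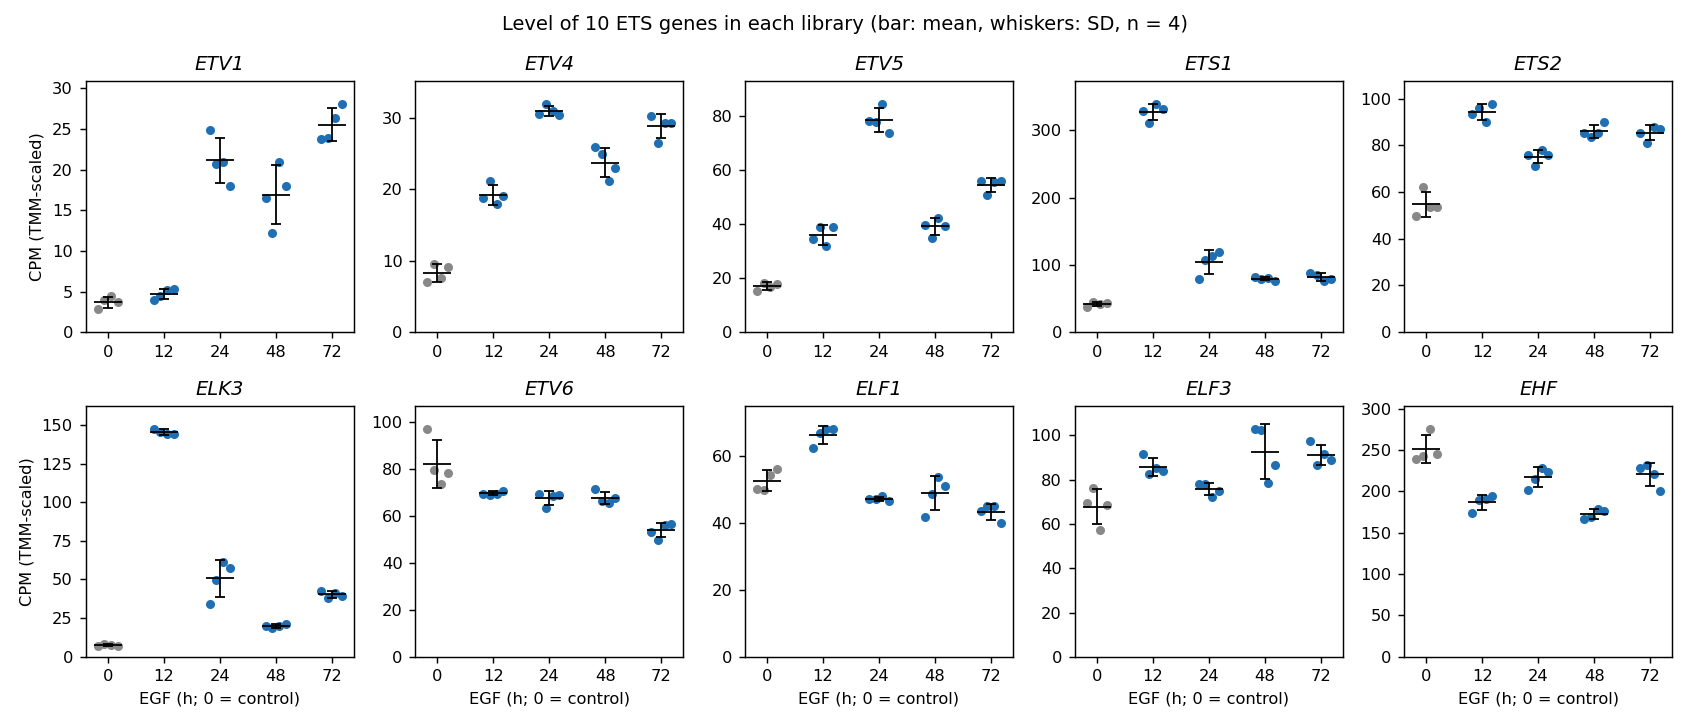
Level of each of the 10 ETS genes (y axis, CPM after TMM scaling, starting at 0) against hours of EGF (x axis, 0 is the control). Points are libraries, bars means and whiskers SDs of 4. ELK3 and ETS1 stood highest at 12 h (145 and 328 CPM), ETV5 at 24 h (78.7 CPM), and EHF and ETV6 were highest in the control.

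ELK3, a ternary complex factor that represses its targets until ERK phosphorylates it, showed the largest change of the 10. The gene (ENSG00000111145) lies on the plus strand of chromosome 12, from 96194382 to 96269835 in GRCh38, with 9 merged exons. The control libraries held 7.28, 8.37, 7.55 and 7.11 CPM, and those at 12 h held 148, 146, 144 and 144 CPM. The values were 34.4, 49.4, 61.5 and 57.4 CPM at 24 h, 19.9, 18.7, 19.9 and 21.1 CPM at 48 h, and 42.8, 38.3, 41.4 and 39.1 CPM at 72 h. No EGF library overlapped with the control at any time, and the libraries at 12 h lay far above all others. Relative to control, the log2 fold change was 4.26 ± 0.13 at 12 h (19.1-fold, adjusted p = 1.83e-18), 2.74 ± 0.12 at 24 h (adjusted p = 5.32e-15), 1.39 ± 0.13 at 48 h (adjusted p = 3.30e-09) and 2.41 ± 0.12 at 72 h (adjusted p = 4.06e-14). From the highest to the lowest, the order was 12, 24, 72 and 48 h and then the control, and every neighbouring pair differed, 24 and 72 h the least (adjusted p = 0.0223). Exons of ELK3 share 4.50% of their bases with AC008149.1 on the opposite strand, and the strand setting of the counting was not given in the sources used here.

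ETS1, the founding member of the family, was also highest at 12 h and had fallen by 24 h. It lies on the minus strand of chromosome 11 (ENSG00000134954, 128458761 to 128587558, 14 merged exons). Its control values were 37.7, 44.7, 42.0 and 42.7 CPM, and at 12 h they were 329, 311, 339 and 332 CPM. The libraries held 78.3, 107, 114 and 119 CPM at 24 h, 82.5, 78.8, 80.3 and 76.4 CPM at 48 h, and 87.8, 84.7, 75.8 and 79.8 CPM at 72 h. Every EGF library lay above the whole control group, and the 48 and 72 h libraries overlapped with each other. Its log2 fold change was 2.97 ± 0.10 at 12 h (7.84-fold, adjusted p = 8.69e-18), 1.32 ± 0.09 at 24 h (adjusted p = 1.71e-11), 0.93 ± 0.09 at 48 h (adjusted p = 1.70e-08) and 0.97 ± 0.09 at 72 h (adjusted p = 3.23e-09). Between 12 and 24 h, ETS1 fell by 1.65 on the log2 scale (adjusted p = 2.53e-12), and 72 and 48 h were not shown to differ (95% interval of the log2 difference -0.14 to 0.23).

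EGF 24 h replicate 1 stood below the other 24 h libraries for ELK3 and ETS1. The same library was also lowest of its group for SPRY2 (52.3 CPM against 73.3 to 84.6), DUSP6 (30.5 against 40.4 to 45.6) and PLAUR (92.5 against 124 to 139). These are single genes of the lists described below. For ETV1 it was the highest (24.9 against 18.01 to 21.0 CPM). For ETV4 (30.5 against 30.4 to 31.9 CPM) and ETV5 (78.4 against 74.0 to 84.6 CPM) it lay within the range of the others. The cause was not tested. Without this library, the log2 fold change at 24 h was 2.88 for ELK3, 1.44 for ETS1 and 2.41 for ETV1, and each call held.

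ETS2, the close relative of ETS1, changed less and in a flatter course. The gene is on chromosome 21 (ENSG00000157557, plus strand, 38805307 to 38824955). It stood at 49.6, 62.3, 53.8 and 53.6 CPM in the control and at 93.4, 96.0, 90.1 and 97.8 CPM at 12 h. The later libraries lay between 71.2 and 77.8 CPM at 24 h, between 83.6 and 90.1 CPM at 48 h and between 80.9 and 88.1 CPM at 72 h. None of them overlapped with the control, and 24 h was the lowest of the EGF times. The log2 change from control was 0.78 ± 0.06 at 12 h (1.72-fold, adjusted p = 1.77e-10), 0.45 ± 0.06 at 24 h (adjusted p = 2.16e-06), 0.65 ± 0.06 at 48 h (adjusted p = 1.53e-08) and 0.64 ± 0.06 at 72 h (adjusted p = 9.10e-09). The levels at 12, 48 and 72 h were not shown to differ from each other at the threshold. Every library at 48 and 72 h lay below every 12 h library, however. The 95% interval of the log2 difference from 12 h was -0.26 to 0.0008 at 48 h (adjusted p = 0.0707) and -0.28 to -0.01 at 72 h (adjusted p = 0.0508).

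The count ratio of ETS1 to ETS2 within a library does not depend on how libraries are scaled. This holds for factors per library, not for factors per gene. In the control, its log2 values were -0.40, -0.48, -0.36 and -0.33, and at 12 h they were 1.81, 1.69, 1.91 and 1.76. At 24 h they were 0.05, 0.59, 0.54 and 0.65, while they ran from -0.24 to -0.05 at 48 h and from -0.22 to 0.07 at 72 h. The ratio was thus above every control library at each time, with mean differences of 2.19, 0.85, 0.28 and 0.33. In an exact permutation test, two-sided, each difference gave p = 0.0286, the smallest that 4 against 4 libraries allow, and an adjusted p of 0.0352 over the 16 ratio comparisons made. Without EGF 24 h replicate 1 the difference at 24 h was 0.99.

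The PEA3 genes ETV1, ETV4 and ETV5 drive genes of growth and invasion in several epithelial cancers. All 3 were called higher from 24 h on, ETV4 and ETV5 at 12 h too, and unlike ELK3 and ETS1 all 3 stood higher at 24 h than at 12 h. ETV5 (ENSG00000244405) lies on chromosome 3 from 186046308 to 186110318, minus strand. It stood at 15.1, 18.3, 16.8 and 17.97 CPM in the control, and at 34.4, 38.8, 31.8 and 39.1 CPM at 12 h. Its values were 78.4, 77.9, 84.6 and 74.0 CPM at 24 h, 39.8, 35.1, 42.4 and 39.5 CPM at 48 h, and 55.9, 50.7, 55.6 and 56.0 CPM at 72 h. The EGF libraries were all above the control, the 24 h libraries were above every other library, and the 12 and 48 h libraries overlapped. Against the control, the log2 fold change was 1.08 ± 0.08 at 12 h (adjusted p = 4.49e-11), 2.20 ± 0.08 at 24 h (4.61-fold, adjusted p = 1.28e-16), 1.20 ± 0.08 at 48 h (adjusted p = 2.25e-11) and 1.68 ± 0.08 at 72 h (adjusted p = 1.54e-14). In the annotation, 2.83% of its exon bases are shared with DGKG on the same strand.

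ETV4 (ENSG00000175832) is on chromosome 17, minus strand, from 43527844 to 43579620. The control libraries held 6.98, 9.54, 7.51 and 9.18 CPM, and the 12 h libraries 18.7, 21.1, 17.9 and 19.0 CPM. The 24 h libraries held 30.5, 31.9, 30.9 and 30.4 CPM, those at 48 h 25.9, 24.8, 21.2 and 22.9 CPM, and those at 72 h 30.3, 26.5, 29.2 and 29.3 CPM. There was no overlap with the control at any time. Relative to control, the log2 fold change was 1.20 ± 0.10 at 12 h (adjusted p = 7.85e-11), 1.89 ± 0.09 at 24 h (3.72-fold, adjusted p = 2.63e-14), 1.51 ± 0.09 at 48 h (adjusted p = 4.23e-12) and 1.79 ± 0.09 at 72 h (adjusted p = 5.56e-14). The levels at 24 and 72 h were not shown to differ (95% interval of the log2 difference -0.28 to 0.08), although every 72 h library lay below every 24 h library by a small margin.

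ETV1 (ENSG00000006468, chromosome 7, minus strand, 13891228 to 13991425, 24 merged exons), whose promoter is printed above, had not passed the threshold at 12 h. It stood at 2.81, 3.91, 4.44 and 3.65 CPM in the control and at 3.94, 4.47, 5.14 and 5.31 CPM at 12 h, and these groups overlapped. At 24 h it stood at 24.9, 20.7, 21.0 and 18.01 CPM, at 48 h at 16.5, 12.2, 21.0 and 18.04 CPM, and at 72 h at 23.8, 23.9, 26.4 and 28.1 CPM. From 24 h on, every library was above every control and every 12 h library. At 12 h the log2 difference from control was 0.34 (95% interval -0.01 to 0.69, adjusted p = 0.0784), a call that was made without control replicate 3 (0.44, adjusted p = 0.0362) or without EGF 12 h replicate 1 (0.42, adjusted p = 0.0454). Its log2 fold change was 2.50 ± 0.15 at 24 h (5.67-fold, adjusted p = 1.33e-12), 2.19 ± 0.15 at 48 h (adjusted p = 3.45e-11) and 2.78 ± 0.15 at 72 h (6.85-fold, adjusted p = 1.41e-13). The 24, 48 and 72 h levels were not shown to differ between neighbours in their order, although 72 h was above 48 h (0.59 ± 0.13, adjusted p = 0.00135).

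Within a library, ETV5 always held the most counts of the 3 genes, but the proportions shifted. The log2 ratio of ETV1 to ETV5 counts had a mean of -2.21 ± 0.21 (SD, n = 4) in the control, and of -2.93 ± 0.23, -1.90 ± 0.17, -1.23 ± 0.22 and -1.10 ± 0.10 after 12, 24, 48 and 72 h. The ratio was lower at 12 h and higher at 48 and 72 h than in the control (exact permutation test, p = 0.0286 each, adjusted p = 0.0352), and at 24 h it was not shown to differ (exact permutation p = 0.0857, adjusted p = 0.0914). The ratio of ETV4 to ETV5 moved less, from -1.05 ± 0.11 in the control to -1.35 ± 0.08 at 24 h and -0.92 ± 0.02 at 72 h (exact permutation test, p = 0.0286 each, adjusted p = 0.0352). At 12 and 48 h its means were -0.91 and -0.72 (exact permutation p = 0.143 and 0.0857, adjusted p = 0.143 and 0.0914). These are ratios of counts, in which factors per gene and library do not cancel. In control replicate 1, count over deposited normalized value was 2.15 for ETV1 and 0.959 for ETV5.

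**Figure D2:**
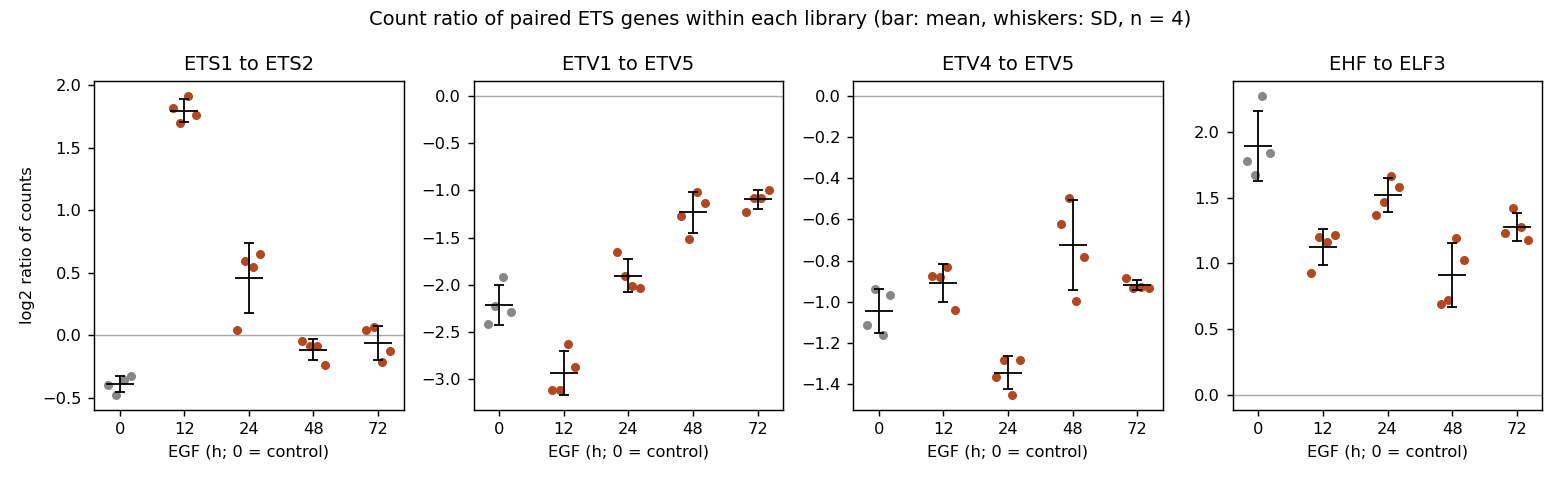
Log2 ratio of counts of 4 gene pairs within each library (y axis) against hours of EGF (x axis, 0 is the control), with the mean and SD of 4 libraries. The ratio of ETS1 to ETS2 rose from a mean of -0.39 to 1.80 at 12 h, that of ETV1 to ETV5 reached -1.10 at 72 h, and that of EHF to ELF3 was below the control at each time.

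EHF and ELF3, both of the epithelium-specific ESE subfamily, went in opposite directions. EHF (ENSG00000135373, chromosome 11, plus strand, 34621093 to 34661057) stood at 239, 243, 276 and 245 CPM in the control and at 174, 190, 191 and 194 CPM at 12 h. It stood at 202, 215, 229 and 224 CPM at 24 h, 166, 170, 179 and 176 CPM at 48 h, and 229, 232, 221 and 201 CPM at 72 h. No EGF library reached the control range, by a small margin at 72 h. The log2 change from control was -0.42 ± 0.06 at 12 h (1.34-fold lower, adjusted p = 2.58e-06), -0.21 ± 0.06 at 24 h (adjusted p = 0.00733), -0.54 ± 0.06 at 48 h (1.45-fold lower, adjusted p = 2.46e-07) and -0.18 ± 0.06 at 72 h (adjusted p = 0.0144). The 72 h call was lost without control replicate 3 (-0.14) or EGF 72 h replicate 4 (-0.14).

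The falls of EHF depended on the scaling of its counts. With factors per gene and library taken from the deposited normalized values, none of the 4 changes of EHF was called (-0.11, 0.03, -0.24 and 0.14 in order of time, adjusted p = 0.154 to 0.875). In control replicate 1 the ratio of count to deposited normalized value was 1.62 for EHF, 2.15 for ETV1 and 2.16 for ELK3, against 1.11 to 1.41, 0.817 to 1.20 and 1.17 to 1.24 in the other control libraries. With the same factors and without that library, an alternative chosen after seeing the data, EHF was again lower at 12 h (-0.25, adjusted p = 0.0369) and 48 h (-0.39, adjusted p = 0.00666), but not called at 24 h (-0.12, adjusted p = 0.361) or 72 h (-0.0028, adjusted p = 0.985).

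ELF3 (ENSG00000163435, chromosome 1, plus strand, 202007945 to 202017188) held 69.6, 76.2, 57.1 and 68.4 CPM in the control, and 91.5, 82.5, 85.1 and 83.8 CPM at 12 h. At 24 h it held 78.3, 77.9, 72.2 and 74.7 CPM, at 48 h 103, 103, 78.3 and 86.7 CPM, and at 72 h 97.4, 86.6, 91.5 and 88.8 CPM. Only the 24 h libraries overlapped with the control. ELF3 was higher at 48 h (0.45 ± 0.09, adjusted p = 0.000158) and 72 h (0.43 ± 0.09, adjusted p = 0.000163), and its log2 difference at 24 h was 0.16 (95% interval -0.02 to 0.34, adjusted p = 0.117). At 12 h it was higher with TMM scaling (0.34 ± 0.09, adjusted p = 0.00133), but not called when libraries were scaled by total counts (0.05, adjusted p = 0.606) or upper quartiles (0.17, adjusted p = 0.112). At 12 h these scalings moved the median log2 fold change of all tested genes to -0.34 and -0.22. Of its exon bases 9.23% are shared with AL691482.3, and 9.23% with ELF3-AS1 on the opposite strand, so that reads there cannot be assigned with certainty.

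The ratio of EHF to ELF3 counts was below every control library in each EGF library. Its log2 mean was 1.89 ± 0.26 in the control, and 1.12 ± 0.14, 1.52 ± 0.13, 0.91 ± 0.24 and 1.28 ± 0.10 in the EGF groups in order of time. Each difference had p = 0.0286 in the exact permutation test (adjusted p = 0.0352). Factors per gene and library do not cancel in this ratio, so the separation holds for the counts only. In control replicate 1, count over deposited normalized value was 1.62 for EHF and 1.16 for ELF3. The deposited normalized values of EHF and ELF3 were 2946 and 1191 there, and 5375 and 1392 in EGF 24 h replicate 3. On those values the 24 h library had the higher ratio.

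ETV6 (ENSG00000139083, chromosome 12, plus strand, 11649854 to 11895402), a transcriptional repressor, was the other gene that fell throughout. The control libraries held 97.4, 79.5, 73.9 and 78.3 CPM, and the EGF libraries 68.9 to 70.9 CPM at 12 h, 63.3 to 69.4 CPM at 24 h, 65.5 to 71.4 CPM at 48 h and 50.0 to 56.8 CPM at 72 h. No EGF library overlapped with the control, and those at 72 h lay below all the others. Against the control, the log2 fold change was -0.24 ± 0.07 at 12 h (adjusted p = 0.00534), -0.28 ± 0.07 at 24 h (adjusted p = 0.00182), -0.28 ± 0.07 at 48 h (adjusted p = 0.00268) and -0.60 ± 0.07 at 72 h (1.52-fold lower, adjusted p = 1.40e-07).

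ELF1 (ENSG00000120690, chromosome 13, minus strand, 40932028 to 41061440) held 50.1, 49.8, 54.3 and 56.0 CPM in the control and 62.4, 66.7, 67.9 and 68.1 CPM at 12 h. It held 47.2, 47.1, 47.9 and 46.4 CPM at 24 h, 41.8, 48.5, 53.7 and 51.1 CPM at 48 h, and 43.6, 44.9, 44.9 and 39.9 CPM at 72 h. The 12 h libraries were above all others, and the 24 and 72 h libraries below all those of the control. At 12 h ELF1 was higher with TMM scaling (0.34 ± 0.07, adjusted p = 0.000191), but not called with scaling by total counts (0.05, adjusted p = 0.545). At 24 h the fit with TMM scaling did not call it (-0.16, adjusted p = 0.0621), whereas it was called lower with total counts (-0.30, adjusted p = 0.00135) and upper quartiles (-0.20, adjusted p = 0.0121). It was not called at 48 h (-0.11, adjusted p = 0.233) and lower at 72 h (-0.28 ± 0.07, adjusted p = 0.00165). The difference between 72 and 12 h was itself called (-0.61 ± 0.07, adjusted p = 7.33e-08).

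**Figure D3:**
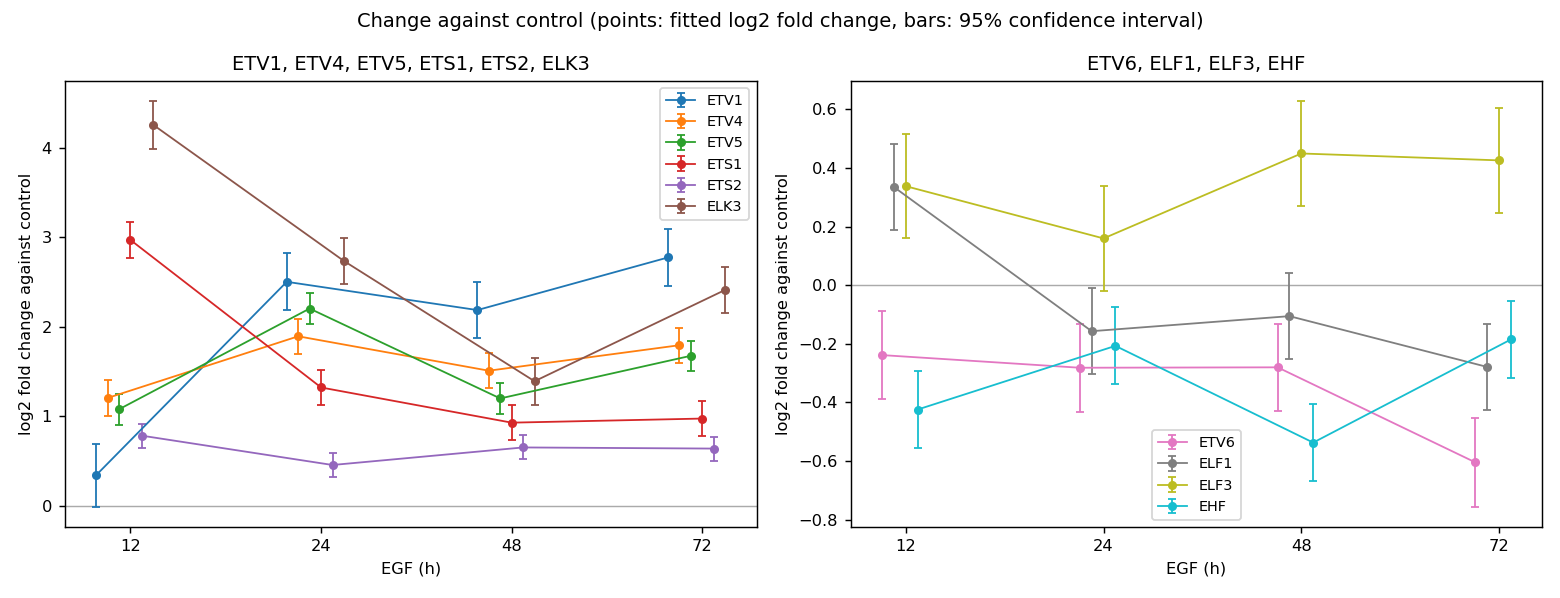
Log2 fold change against control (y axis) of the 10 members over 4 durations of EGF (x axis, hours), with 95% confidence intervals from the fit. The left panel runs to 4.26 for ELK3 at 12 h, whereas in the right panel the changes lie between -0.60 (ETV6 at 72 h) and 0.45 (ELF3 at 48 h).

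The times were also compared with each other, which does not involve the control. From 12 to 24 h, 4 members rose and 4 fell, beside 27.9% and 25.9% of all tested genes (53.7% called), and for 9 members the libraries did not overlap (53.5%). ETV1 (2.16 ± 0.15, adjusted p = 8.91e-11), ETV5 (1.13 ± 0.08, adjusted p = 8.64e-11), ETV4 (0.69 ± 0.09, adjusted p = 8.51e-07) and EHF (0.22 ± 0.06, adjusted p = 0.00605) rose, while ETS1, ELK3, ELF1 and ETS2 fell. The rise of EHF was not called with no filter beyond 1 count (0.18, adjusted p = 0.0754) or with the deposited factors (0.14, adjusted p = 0.405). The PEA3 genes and the 12 h group of ETS1 and ELK3 thus moved in opposite directions over the same interval.

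From 24 to 48 h, 5 members fell and 2 rose (all tested genes, 24.3% and 25.9%, 50.2% called), with no overlap for 6 (44.6%). ELK3 fell by 1.34 on the log2 scale (adjusted p = 1.76e-09), ETV5 by 1.01 (adjusted p = 4.12e-10), ETS1 by 0.39 (adjusted p = 0.000958), ETV4 by 0.38 (adjusted p = 0.000831) and EHF by 0.33 (adjusted p = 0.000154), and ELF3 and ETS2 rose. With the deposited factors the changes of EHF (-0.27, adjusted p = 0.104), ELF3 (0.28, adjusted p = 0.0566) and ETS2 (0.17, adjusted p = 0.0673) were not called, nor was that of ETS2 with no filter beyond 1 count (0.19, adjusted p = 0.0654). From 48 to 72 h, 5 members rose and 1 fell (all tested genes, 17.9% and 17.9%, 35.7% called), with no overlap for 6 (35.1%). The largest rise was that of ELK3 (1.02 ± 0.11, adjusted p = 2.38e-07), followed by ETV1 (0.59), ETV5 (0.48), EHF (0.35) and ETV4 (0.29), and ETV6 fell. The rise of ETV4 was not called with total counts (0.20, adjusted p = 0.0905) or the deposited factors (0.20, adjusted p = 0.191), and that of ETV1 not with the deposited factors (0.53, adjusted p = 0.128).

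The 48 h level was also set against the mean of the neighbouring 24 and 72 h levels. This comparison was chosen with earlier results of these data known, and it uses the libraries of the steps above. It gives the size of the difference and is no independent evidence for it. It was lower for 6 members and higher for 1, beside 21.8% and 23.7% of all tested genes (45.5% called), with no overlap for 4 (19.1%). ELK3 was lower by the most (-1.18 ± 0.10, adjusted p = 3.19e-09), then ETV5 (-0.74 ± 0.07, adjusted p = 1.10e-08), ETV1 (-0.45 ± 0.12, adjusted p = 0.00315), EHF (-0.34 ± 0.06, adjusted p = 2.77e-05), ETV4 (-0.33 ± 0.08, adjusted p = 0.00103) and ETS1 (-0.22 ± 0.08, adjusted p = 0.0270). ETV6 was higher (0.16 ± 0.06, adjusted p = 0.0368). The calls of ETS1, ETV1 and ETV6 depended on the processing. ETS1 was not called with total counts (-0.096, adjusted p = 0.304) or upper quartiles (-0.17, adjusted p = 0.0844), nor without EGF 48 h replicate 2 (-0.22, adjusted p = 0.0541). ETV1 was not called with the deposited factors (-0.42, adjusted p = 0.147). ETV6 was not called with DESeq2's size factors (0.15, adjusted p = 0.0521), with no filter beyond 1 count (0.16, adjusted p = 0.1003) or with the deposited factors (0.10, adjusted p = 0.285).

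Over the longer intervals, 2 members rose and 3 fell from 12 to 48 h (all tested genes, 37.7% and 32.5%, 70.3% called), with no overlap for 6 (65.0%). From 12 to 72 h, 4 rose and 4 fell (35.6% and 32.0%, 67.6% called), with no overlap for 9 (66.7%). From 24 to 72 h, 2 rose and 4 fell (20.6% and 19.7%, 40.2% called), with no overlap for 6 (41.1%), and the 2 that rose were ELF3 and ETS2.

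To compare genes with each other, levels were divided by exon length, merged over all annotated transcripts of a gene. On this scale, EHF was the most abundant member in the control (57.2 ± 3.87 CPM per kb), followed by ELF1 (12.1), ETS2 (11.9), ETV6 (11.6), ELF3 (9.43) and ETS1 (5.84), while ETV5 (2.94), ETV4 (2.30), ELK3 (1.63) and ETV1 (0.385) were low. At 12 h, ETS1 (45.8 ± 1.70) and ELK3 (31.3 ± 0.368) stood beside EHF (42.6 ± 2.09). At 24 h, ETV5 reached 13.6 ± 0.759 CPM per kb. The order of genes depends on these lengths, which can exceed those of the transcripts present. Before division, ELF3 (67.8 CPM) stood above ETS2 (54.8) and ELF1 (52.6) in the control, and below ETV6 (82.3).

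The 28 ETS genes of the annotation were summed in the same way and divided by subfamily. The ESE genes (EHF, ELF3 and ELF5) held 32.5% ± 2.23 of the summed level in the control and 19.3% ± 0.432 at 12 h, and 28.7% ± 1.34 at 72 h. The ETS subfamily (ETS1 and ETS2) went from 8.58% ± 0.310 to 23.4% ± 0.590 at 12 h and stayed at 13.3 to 14.7% later. The ternary complex factors (ELK1, ELK3 and ELK4) went from 10.3% ± 0.930 to 20.05% ± 0.278 at 12 h, but without division by length these shares were 17.6% and 22.6%. The PEA3 genes went from 2.72% ± 0.197 to 10.5% ± 0.586 at 24 h. The ranges over libraries did not overlap between control and 12 h for these 4 subfamilies. Shares are relative, so that a rise of one subfamily lowers the others.

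**Figure D4:**
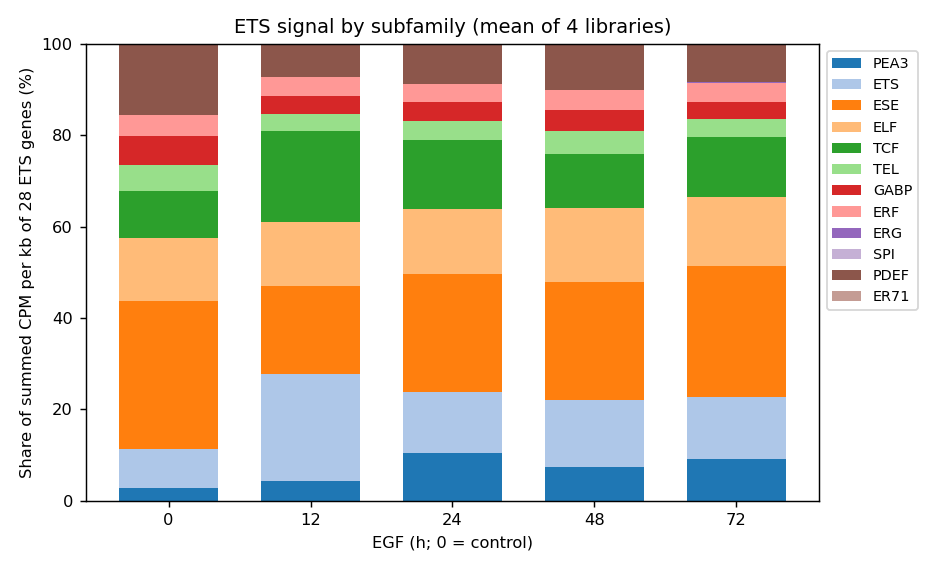
Share of the summed CPM per kb of 28 ETS genes held by each of 12 subfamilies (y axis, percent, mean of 4 libraries) against hours of EGF (x axis, 0 is the control). ESE genes held 32.5% in the control and 19.3% at 12 h, ETS1 and ETS2 together 8.58% and 23.4%, and PEA3 genes 10.5% at 24 h.

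Of the 18 other ETS genes, 12 passed the filter on low counts and FLI1, FEV, ETV3L, SPI1, SPIB and SPIC did not, with at most 3 counts in any library. At 12, 24, 48 and 72 h, 7, 8, 5 and 9 of the 12 were called (4, 3, 2 and 4 higher, and 3, 5, 3 and 5 lower), to be read beside the percentages of all tested genes given above. ELF4, a relative of ELF1, rose at each time, from 55.2 ± 7.85 CPM to 92.1 ± 3.53 CPM at 12 h (0.74 ± 0.08, adjusted p = 4.41e-08). SPDEF, a luminal epithelial factor, fell from 61.0 ± 13.1 to 38.9 ± 2.32 CPM at 12 h and 34.7 ± 2.77 CPM at 72 h (-0.81 ± 0.12, adjusted p = 3.36e-06). ELF5, a factor of the secretory mammary lineage, fell from 1.83 ± 0.191 to 0.373 ± 0.0676 CPM at 12 h (-2.27 ± 0.26, adjusted p = 5.07e-08), on 35 to 49 and 5 to 9 counts.

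Among the ternary complex factors, ELK1 was called higher at 12 h (0.77 ± 0.15, adjusted p = 7.50e-05), and ELK4 at 24 h (0.41 ± 0.09, adjusted p = 0.000473), and neither was called at another time. GABPA, a regulator of mitochondrial and housekeeping genes, was lower at 24, 48 and 72 h (-0.43, -0.46 and -0.61) and ELF2 at 24 and 72 h (-0.20 and -0.42). Of the repressors, ETV3 was higher at 12 and 72 h (0.40 and 0.23) and ERF at 12 h (0.27, adjusted p = 0.0490). ETV2 was lower at 12, 24 and 72 h (-1.45, -1.26 and -0.85) and ETV7 higher at 72 h (0.94), both at 4 to 43 counts per library.

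ERG, best known from its gene fusion in prostate cancer, was nearly silent in the control, with 1 to 3 counts per library and 7 in all 4. The 4 libraries together held 11 counts after 12 h, 37 after 24 h, 34 after 48 h and 141 after 72 h, with 27 to 49 in each of the last. Relative to control and adjusted for depth, the ratio of pooled counts was 1.79 at 12 h (95% interval 0.634 to 5.45), 6.28 at 24 h (2.76 to 16.7), 4.92 at 48 h (2.15 to 13.1) and 23.0 at 72 h (10.9 to 58.2). These exact binomial intervals cover counting error only. ERG was called higher at 24, 48 and 72 h (adjusted p = 2.90e-05, 0.000340 and 5.75e-10), and its level at 72 h was 1.83 ± 0.268 CPM. It passed the filter on low counts through EGF libraries alone, so its calls add little to the counts of other ETS genes above.

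Genes known to follow ERK activity were read as a list beside the family. Of 8 (PHLDA1, SPRY2, SPRY4, DUSP4, DUSP6, CCND1, EPHA2 and EPHA4), all were higher at 12, 24 and 72 h and 7 at 48 h, beside 32.9%, 29.2%, 30.6% and 24.0% of all tested genes. Their median log2 fold change was 3.17, 2.01, 0.85 and 2.06 at 12, 24, 48 and 72 h. SPRY2, an inhibitor of receptor tyrosine kinase signaling, stood at 11.2 CPM in the control and at 126, 71.3, 28.6 and 72.0 CPM at the 4 times. DUSP6, the phosphatase of ERK, stood at 5.36 and then at 55.7, 40.1, 13.7 and 35.8 CPM. CCND1, encoding cyclin D1, was not called at 48 h (0.03 ± 0.08, adjusted p = 0.760). For SPRY2, SPRY4, DUSP6 and CCND1, the mean level at 48 h was below that at 24 and 72 h. The same held for ELK3, ETS1, ETV1, ETV4 and ETV5. It also held for EHF, which was below the control, but not for the other members. This is an order of means. In the edgeR test ETS1 was not shown to differ between 48 and 72 h (adjusted p = 0.737), nor ETV1 between 24 and 48 h (adjusted p = 0.0547).

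Among 11 regulators and partners of ETS proteins, 5 were higher and 2 lower at 12 h, 4 and 2 at 24 h, 2 and 2 at 48 h, and 1 and 4 at 72 h. The 7, 6, 4 and 5 called stand beside 69.4%, 58.8%, 45.8% and 61.6% of all tested genes, so the count says nothing particular about the list. RUNX1, which binds DNA together with ETS1, was higher throughout, and its 12 h level was 162 ± 12.0 CPM beside 51.7 ± 2.50 CPM without EGF (1.65 ± 0.09, adjusted p = 9.49e-14). SRF, the partner of the ternary complex factors, was called higher at 12 h and at no later time (0.90 ± 0.10, adjusted p = 1.17e-08), from 18.1 to 33.9 CPM. DET1, part of the ubiquitin ligase that degrades PEA3 proteins, was lower at each time, with 3.40 CPM at 12 h and 3.59 CPM at 72 h beside a control level of 8.42 CPM. The coactivator CREBBP was lower at 72 h (-0.52 ± 0.09, adjusted p = 1.82e-05).

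Protease genes are textbook targets of ETS1 and PEA3 factors. Of 9, 5 passed the filter on low counts. MMP7, MMP14, PLAU and PLAUR were called higher at each of the 4 times, beside the same shares of all tested genes. MMP1 was called too, but it passed the filter through EGF libraries alone, so its calls add nothing. PLAUR, the urokinase receptor, went from a control level of 25.2 ± 2.74 CPM to 332 ± 6.87 CPM after 12 h (3.72 ± 0.12, adjusted p = 3.89e-18), and at 123, 56.7 and 152 CPM at 24, 48 and 72 h. PLAU, which encodes urokinase, stood at 9.09 CPM in the control and at 33.0, 12.9, 16.4 and 25.5 CPM. MMP7 rose to its highest level at 72 h, from 6.83 to 36.5 CPM. MMP1 had no count in any control library and 27 to 73 counts per library at 72 h.

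Serum response genes, the classical targets of SRF and the ternary complex factors, were read in the same way. All 7 that passed the filter were higher at 12 h (all tested genes, 32.9% higher), 4 were higher and 2 lower at 24 h (29.2% and 29.6%), 2 and 5 at 48 h (24.0% and 21.8%), and 5 and 2 at 72 h (30.6% and 31.0%). Their median log2 fold change was 1.34, 0.65, -0.52 and 0.69 in order of time. EGR3 stood at 0.391 CPM in the control, 6.61 CPM at 12 h and 0.143 CPM at 48 h, and EGR1 at 55.6, 84.3 and 38.8 CPM. The control level of EGR3 was too low to pass the filter without EGF libraries, so its 12 h call adds little to the 7. FOSB was highest at 72 h (9.29 CPM against 1.26 CPM in the control), and IER2 at 12 h (147 against 35.8 CPM).

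**Figure D5:**
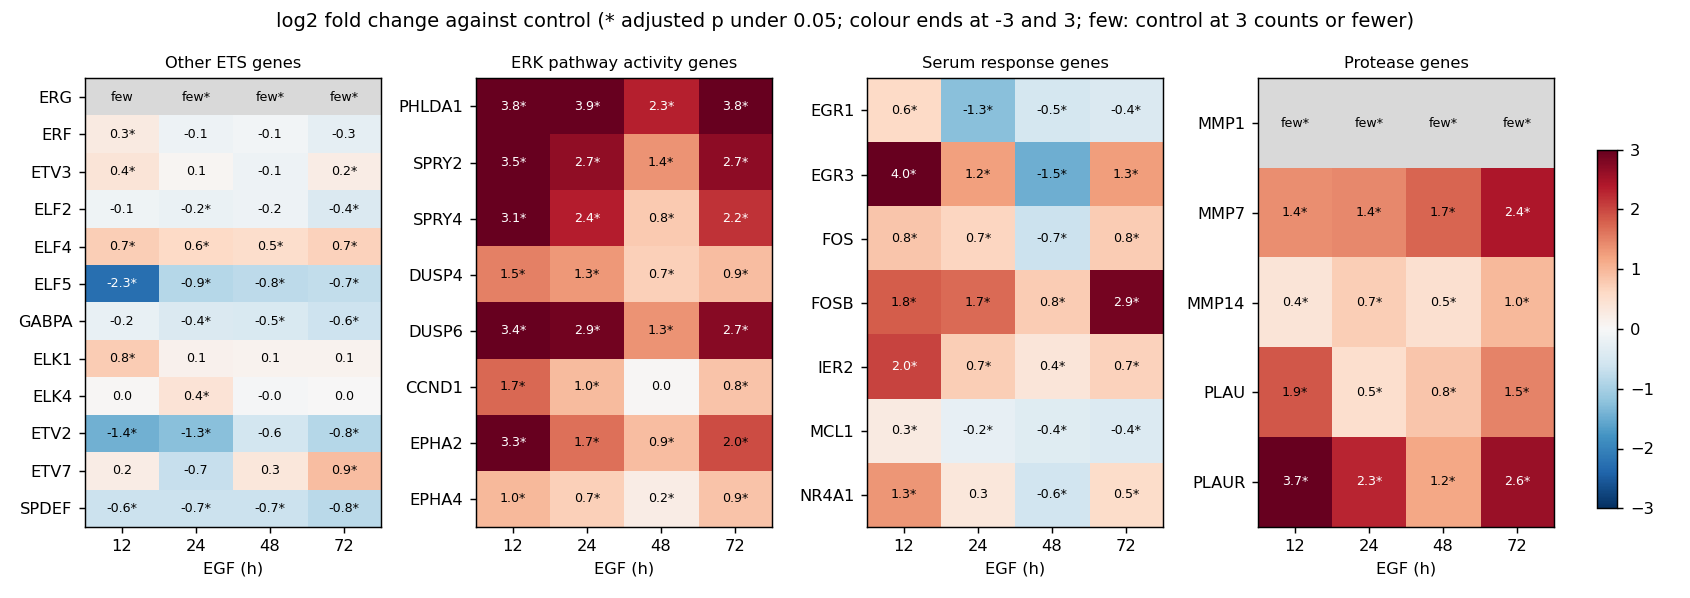
Log2 fold change against control (colour and printed value) of the other ETS genes, ERK activity genes, serum response genes and protease genes that were tested (rows) at 4 times of EGF (columns). An asterisk marks an adjusted p under 0.05, and "few" stands for ERG and MMP1, whose control libraries had 3 counts or fewer. The ERK activity genes were higher in nearly every field, and lowest at 48 h.

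For each member, the genes with the most similar profile over the 20 libraries were listed, among genes with a mean of at least 10 CPM, by Pearson's r of log2 CPM. The libraries share their group and their scaling, so that r describes mainly the course over the 5 groups. For ELK3 they included CLCF1 (r = 0.9925), a cytokine gene of the interleukin 6 family, and KIAA0040 (0.9919), and CLCF1 stood at 1.33 CPM in the control and at 52.8 CPM at 12 h. For ETS1 they were ZDHHC9 (0.9889), PLIN3 (0.9849) and COTL1 (0.9824), and for ETS2 MYPN, TNFSF9 and CIB1 (0.9460 to 0.9676).

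ETV4 was most like SOCS2-AS1 (0.9920), RPS6KA2 (0.9893), a kinase downstream of ERK, and GCNT3 (0.9820). ETV1 was most like ADGRF1, SLFN5 and ANKRD22 (0.9742 to 0.9805), and ETV5 like SMOC1, FUT8 and DPYD (0.9613 to 0.9721). No PEA3 gene was thus among the closest genes of another. The values were lower for the members that changed less, with AFG3L2, ATP5F1A and RBM8A for ETV6 (0.9273 to 0.9359), PTPN14, CREB1 and PAM for ELF1 (0.9268 to 0.9293), RNASEK, DEPP1 and WBP2 for ELF3 (0.8982 to 0.9386), and ZNF791, TRIM24 and C1GALT1C1 for EHF (0.8584 to 0.8672).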

How the data were processed

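The 20 libraries were prepared from MDA-MB-468 cells by the authors using Lexogen's Corall mRNA protocol, with single-end reads of 75 bases. The authors deposited 10 tables with identical estimated counts per gene, rounded to whole numbers, and a normalized score for each gene in each library, made with DESeq2. The build is hg38 per the submitters' processing notes, while aligner, annotation, strand setting and use of molecular identifiers are not given in the sources used here. Deposited fold changes and p-values were not used.

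The counts were analyzed in edgeR 4.0.16 (R 4.3.3). After filterByExpr, 16522 genes were scaled by TMM and fitted in one model with a mean per group, as the quasi-likelihood test of edgeR with Benjamini-Hochberg adjustment. The procedure was tested on simulated data. Ratios were computed with 0.5 counts added. Exons are from GENCODE 29, promoters from RefSeq. The members and gene lists were chosen with earlier results of these data known. In the lists, at most 4 genes with the lowest p against control were named, and for likeness 3 per member, of which 1 is not reported here. Totals of 15611961 to 25856953 counts set the precision. Alternatives were other scalings and filters, DESeq2 1.42.0, fewer libraries, a prior count of 2, a replicate block and leaving out each library. P-values set each difference against the spread between the replicates of this single line, and cover no other line. Between replicates, variance was 3.53 to 57.5 times counting noise. Windows of 75 bases of the members' transcripts were shared with no other ETS gene.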

Additional observations from a re-analysis of the deposited data

Results flagged for a closer look

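Within the 50 groups of 4 libraries (10 members at 5 times), 2 had a library far from the other 3 by Dixon's criterion on log2 CPM, which chance gives in about 1 of 20 groups. ETV5 in EGF 72 h replicate 2 was at 50.7 CPM, against 55.6 to 56.0 CPM in the other 3 libraries. ETV6 in EGF 24 h replicate 2 was at 63.3 CPM, against 68.7 to 69.4 CPM. The calls of ETV5 and ETV6 against the control did not change without these libraries. On the CPM scale these 2 groups and 1 more passed the critical value, EHF in control replicate 3, at 276 CPM against 239 to 245 CPM (its gap to the nearest library was 0.837 of the group's range on CPM and 0.827 on log2 CPM). Without that library the fall of EHF at 72 h was not called (-0.14).

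ELF1 was higher than the control at 12 h and lower at 72 h, and the direct comparison of 72 with 12 h gave a log2 difference of -0.61 (adjusted p = 7.33e-08). With scaling by total counts, the 12 h level was not called higher.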

How the results depend on the processing

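Of the changes of the 10 members in 8 comparisons, those called against the control for ELK3, ETS1, ETS2, ETV4, ETV5 and ETV6 held under every alternative run and without any one library. Replicate numbers did not pair the libraries throughout. Only 6 of 16 same-numbered pairs of an EGF and a control library correlated above 0.1. Of 20 libraries, 6 were closest to their own number. Single pairs did deviate together, such as EGF 48 h replicates 2 and 3 with the control (correlation 0.641 and 0.756), while EGF 72 h replicate 2 went the other way (-0.513). A replicate block added 2 calls, ETV1 from 24 to 48 h (-0.34) and ELF3 from 12 to 24 h (-0.18), and lost none. For the count ratios, pairing by replicate number cannot change a mean difference, such as 2.19 for ETS1 to ETS2 at 12 h. Its staying the same is therefore no check. With 4 pairs, an exact test that flips the signs of paired differences cannot reach the threshold, so it decides nothing about the ratios. The cause of the changes below was not tested.

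With factors per gene from the deposited normalized values, members called lower became 1 at 12, 24 and 48 h (at 24 h, 6 higher and 1 lower), and those called higher 0 from 24 to 48 h, 3 from 48 to 72 h and 0 at 48 h against its neighbours. EHF turned to 0.027 at 24 h and 0.14 at 72 h, ETV6 from 24 to 48 h to -0.041 and ELF3 from 48 to 72 h to 0.18. With these factors 4, 3 and 4 other ETS genes were called at 24, 48 and 72 h, 3 proteases and 3 serum response genes at 48 h, and 4, 2 and 4 epithelial genes at 24, 48 and 72 h.

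At 48 h against its neighbours, 4 members were higher with total counts and 4 with upper quartiles, and 0 with DESeq2's size factors or with no filter. From 48 to 72 h, 2 were lower with total counts and 2 with upper quartiles. From 24 to 48 h, 1 was higher with no filter. ETV6 from 12 to 24 h turned to 0.099 with total counts and 0.073 with upper quartiles. From 24 to 48 h it was -0.0031 with DESeq2's size factors, -0.0035 in DESeq2 and -0.00086 with no filter. From 48 to 72 h, ETS1 was -0.043 with total counts, and ETS2 0.0086 with DESeq2's size factors, 0.0083 in DESeq2 and 0.0034 with at least 10 counts in every library. That filter left 5, 3 and 5 other ETS genes called at 24, 48 and 72 h. Fitting only the libraries compared left 2 regulators and 3 epithelial genes called at 48 h. EHF at 72 h was not called under 4 alternatives. With 5 counts added, the ETV4 to ETV5 difference at 72 h was 0.11 and not called.

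Leaving out 1 library, members higher at 48 h against its neighbours ran from 0 to 2, those higher from 24 to 48 h from 1 to 2 and those lower from 48 to 72 h from 1 to 2. ETV6 from 24 to 48 h ran from -0.029 (without EGF 24 h replicate 2, and -0.025 without EGF 48 h replicate 1) to 0.018. From 48 to 72 h, ETS2 ran from -0.028 to 0.012 (without EGF 72 h replicate 2, and 0.0095 without EGF 48 h replicate 4), and ELF3 from -0.097 to 0.031 and 0.030 without EGF 48 h replicates 1 and 2. EHF at 72 h was not called without control replicate 3 (-0.14) or EGF 72 h replicate 4 (-0.14), and at 24 h ELF3 was called without control replicate 2 (0.22) and ELF1 without control replicates 1 or 2 (-0.18 each). ETV1 from 24 to 48 h was called without EGF 24 h replicate 4 (-0.39) or EGF 48 h replicate 3 (-0.44), and ELF1 from 48 to 72 h without EGF 48 h replicate 1 (-0.24). Calls were lost for ETV4 from 48 to 72 h without EGF 48 h replicate 3 (0.23) and for ETS2 from 24 to 48 h without EGF 24 h replicate 2 (0.17). At 48 h against its neighbours, ETS1 was not called without EGF 24 h replicates 3 (-0.20) or 4 (-0.19) or EGF 48 h replicates 2 (-0.22) or 4 (-0.20), and ETV6 not without EGF 24 h replicate 2, EGF 48 h replicates 1 or 4, or EGF 72 h replicates 1 or 2 (0.14 to 0.16), while ELF3 was called without EGF 48 h replicate 3 (0.23) and ELF1 without EGF 48 h replicate 1 (0.18).

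Without division by length, the share of ETS1 and ETS2 was 9.45, 28.03, 14.5, 15.7 and 14.7% in the control and at 12, 24, 48 and 72 h, that of the ternary complex factors 17.6, 22.6, 22.1, 17.997 and 18.9%, that of ESE genes 18.1, 23.8 and 25.3% at 12, 24 and 48 h, and that of PEA3 genes 9.54% at 72 h. Genes under about 10 counts per library have wide intervals at this depth.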

Other observations

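Epithelial genes were also read beside the family, since ELF3 and EHF are epithelium-specific factors. Of 9 such genes, 8 were higher and 1 lower at 12 h, 4 and 3 at 24 h, 1 and 4 at 48 h, and 4 and 4 at 72 h. Of all tested genes 69.4%, 58.8%, 45.8% and 61.6% were called at these times, and the 5 of 9 at 48 h are near that share. LCN2, a secreted siderophore-binding protein, had the largest change of the list, from 141 CPM in the control to 241, 363, 683 and 2008 CPM at 12, 24, 48 and 72 h. KRT8, an epithelial keratin, stood at 146 CPM in the control and at 729, 371, 154 and 240 CPM, and CLDN4, a tight junction protein, at 48.9, then 109, 47.6, 46.4 and 59.0 CPM. GRHL2, a transcription factor that maintains epithelial gene expression, was lower at each time (-0.93, -0.69, -0.28 and -0.83 on the log2 scale).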
